A study of Mus musculus with 96 samples.

Results

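The complement and coagulation proteins of plasma are secreted mainly by liver parenchymal cells, and the 38 genes described here encode 18 proteins of complement and 20 of coagulation and fibrinolysis. They were picked by symbol from a list, and all 38 were among the 34591 gene symbols counted in 96 mouse RNA-seq libraries. The question followed here is which of these messages primary tumours, metastases and organoids of the liver kept, compared with normal liver.

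Complement is a cascade of plasma proteases. Mannose-binding lectins (Mbl1, Mbl2) bind microbial sugars and activate the proteases Masp1 and Masp2, which cleave C4 and C2, and the resulting convertase cleaves C3. C5, which is listed under the gene symbol Hc, then joins C6, C8 and C9 in a pore in the target membrane. In coagulation, the vitamin K-dependent proteases F7, F9 and F10 lead to thrombin, the active form of prothrombin (F2), which turns fibrinogen (Fga, Fgb, Fgg) into fibrin. Antithrombin (Serpinc1), heparin cofactor II (Serpind1), protein C (Proc) and protein S (Pros1) restrain this cascade, and plasmin, made from plasminogen (Plg), dissolves the clot.

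The groups bear the names of the labels, which expand neither PPTR, PNR, LCS, HBS nor F2 and give no strain, age or transgene. Metastases comprised 5 of PPTR tumours (2 from intestine and 1 each from lung, peritoneum and within the liver), 5 from lung and 3 from peritoneum of LCS-driven tumours, and 3 of HBS1_F2-driven tumours with peritoneum as the source. Primary tumours comprised 11 PPTR, 9 PNR, 10 LCS-driven, 2 HBS1-driven and 2 HBS1_F2-driven tumours. Organoids, which are 3-dimensional cultures, comprised 19 libraries of 5 LCS lines, 11 libraries of 6 HBS lines and 4 libraries labelled HBS1_F2, which the labels call cancer or tumour organoids, and 6 of normal liver organoids. Normal liver tissue gave 6 libraries. The labels of the LCS-driven, HBS1-driven and HBS1_F2-driven tumours carry an organoid name, and do not state how these tumours were made. The labels name no treatment. The labels do not tie libraries to animals, so all p-values measure the spread between libraries.

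The genes of the 3 fibrinogen chains are shown by the 250 bases before their start sites, because these chains moved together in several comparisons below. The sequences are from RefSeq on GRCm38.p6, whose coordinates differ from those of mm9, the build used for the counts. They lie at chr3:83025903-83026152 on the plus strand (Fga), chr3:83049864-83050113 on the minus strand (Fgb) and chr3:83007474-83007723 on the plus strand (Fgg), each written 5′ to 3′. Capitals mark matches, on either strand, to the motif CTGGGAA, the motif GTTAAT or the motif TTGCNNAA.
Fga: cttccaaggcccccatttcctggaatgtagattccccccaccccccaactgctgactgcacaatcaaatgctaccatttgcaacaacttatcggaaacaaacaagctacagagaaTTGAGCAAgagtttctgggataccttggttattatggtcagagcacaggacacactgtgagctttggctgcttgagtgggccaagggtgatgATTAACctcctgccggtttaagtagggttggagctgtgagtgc
Fgb: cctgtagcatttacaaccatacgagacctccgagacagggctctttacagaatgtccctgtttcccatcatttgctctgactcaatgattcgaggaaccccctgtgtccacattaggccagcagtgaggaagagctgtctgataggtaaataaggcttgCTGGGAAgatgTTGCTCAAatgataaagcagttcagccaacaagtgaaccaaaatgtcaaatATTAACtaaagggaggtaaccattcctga
Fgg: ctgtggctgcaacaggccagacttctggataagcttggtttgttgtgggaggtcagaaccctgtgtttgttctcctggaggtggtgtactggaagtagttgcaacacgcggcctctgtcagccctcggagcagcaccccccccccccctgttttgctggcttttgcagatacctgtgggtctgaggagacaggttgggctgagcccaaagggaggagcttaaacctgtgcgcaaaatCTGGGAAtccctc
Of the 29 members with a RefSeq window, 4 held CTGGGAA, 8 held GTTAAT and 7 held TTGCNNAA. Among all 32851 windows of this length the shares were 9.10%, 6.43% and 9.56%. The Fgb window held all 3 motifs, the Fga window held GTTAAT as well as TTGCNNAA, and the Fgg window held CTGGGAA. These are letter matches only.

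Libraries held 4393199 to 87058563 gene counts, and normal livers among them held 9478377 to 29423985. Counts in ribosomal repeats made up 0.925% to 2.12% of PNR tumour libraries and 0.210% to 18.3% of PPTR primary tumour libraries, against 10.7% to 25.8% of normal liver libraries, so this quantity moved with the tissue. Levels below are CPM, the counts of a gene relative to the size of its library, scaled by TMM factors, which align libraries on the genes that change little between them. Normal liver 5 stood apart from the other livers, with 28255 CPM of the acute phase gene Saa1 against at most 3087 CPM in the other 5. LCS-driven peritoneal metastasis 1 had the fewest counts and a ribosomal share of 34.9%, and HBS1_F2 organoid 2 lacked most hepatocyte transcripts. PNR libraries 2 and 3, 4 to 6 and 7 to 9, and lung metastases 1 and 2, were close to each other within their groups. Normal liver organoids 4 to 6, whose library identifiers share a leading code, held 0.0275, 0 and 0.0385 CPM of Fgb and 0.055, 0.227 and 0.154 CPM of Alb, against 1.26, 2.57 and 2.72 CPM of Fgb and 28.2, 9.15 and 8.68 CPM of Alb in normal liver organoids 1 to 3.

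The tissue labels were checked against markers. Alb (albumin), of hepatocytes, was at 0.055 to 28.2 CPM (median 4.46) in normal liver organoids and 35529 to 74973 CPM (median 59642) in normal liver, and the ductal keratin Krt19 was at 365 to 727 CPM (median 462) in normal liver organoids. LCS-driven lung metastases held 582, 475, 281, 410.0 and 649 CPM of Sftpc, a surfactant protein of lung, against 0 to 0.257 CPM (median 0) in LCS-driven primary tumours.

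Some members are counted with uncertainty. C2 and Cfb overlap a read-through gene on their own strand that received no count in any library, and Cfb was counted at only 1.55 to 4.72 CPM (median 2.42) in normal liver, so the levels of both are uncertain throughout. C4b and Kng1 have close copies (C4a, Kng2), and Klkb1 overlaps a predicted gene on its strand. Whether the counting used strand is not given in the sources used here, so reads of C2, F5, Hc, Fgg, Masp2, Plg and Serpinc1 and of the genes opposite them cannot be told apart.

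Together the 38 genes held several percent of gene counts in liver and in most tumours, and far less in organoids. Their share was 2.32% to 5.73% in PPTR metastases, 2.55% to 4.64% in PPTR primary tumours, 2.64% to 4.61% in PNR tumours and 1.54% to 4.81% in HBS1_F2-driven metastases, against 3.48% to 7.92% in normal liver. LCS-driven tumours formed a lower range, with 0.0512% to 0.535% in lung metastases, 0.133% to 0.600% in peritoneal metastases and 0.407% to 3.43% in primary tumours. Organoids of LCS lines (0.0524% to 0.921%), HBS lines (0.0210% to 0.221%) and normal liver (0.0552% to 0.117%) lay below every normal liver, as did HBS1_F2 organoids at 0.0833% to 1.58%.

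**Figure D1:**
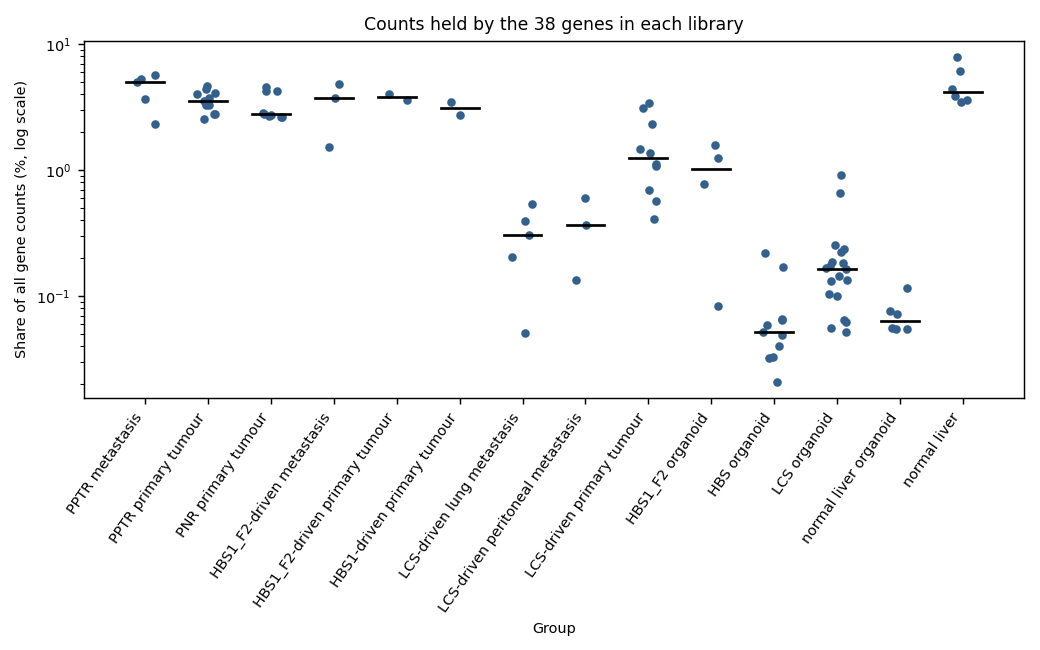
Share of gene counts held by the 38 complement and coagulation genes in each of the 96 libraries, in percent on a log axis, by group, with a bar at the group median. Organoid libraries lay at or below 1.58%, PPTR and PNR primary tumours at 2.55% to 4.64%, and normal livers at 3.48% to 7.92%.

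As a description of what each group kept, the median CPM of a member was set against its median in normal liver. At least 25% of the liver median was found for 21 of the 38 members in PPTR metastases, 35 in PPTR primary tumours and 32 in PNR tumours. The number was 29 in HBS1_F2-driven metastases, 29 in HBS1_F2-driven primary tumours and 32 in HBS1-driven primary tumours. LCS-driven tumours kept fewer at this level, 3 in lung metastases (C2, Cfb, Pros1), 4 in peritoneal metastases and 6 in primary tumours. HBS1_F2 organoids kept 5 (C4b, Cfb, Cfi, Vtn, F5), and LCS, HBS and normal liver organoids kept 1 each, the uncertain Cfb.

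Members near that level change sides with small shifts. In LCS-driven primary tumours Cpb2 (25.1%), Masp1 (25.8%) and C4b (26.1%) lay just above it, and in PPTR primary tumours Plg lay just below it at 24.7%. Without TMM factors the numbers were 29, 37 and 33 in PPTR metastases, PPTR primary tumours and PNR tumours, and 6, 7 and 15 in LCS-driven lung metastases, peritoneal metastases and primary tumours. They were 10 in HBS1_F2 organoids, 2 in LCS organoids and 1 each in HBS and normal liver organoids. Tumours of the HBS1 lineage had 33 in HBS1_F2-driven metastases, 32 in HBS1_F2-driven primary tumours and 34 in HBS1-driven primary tumours.

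**Figure D2:**
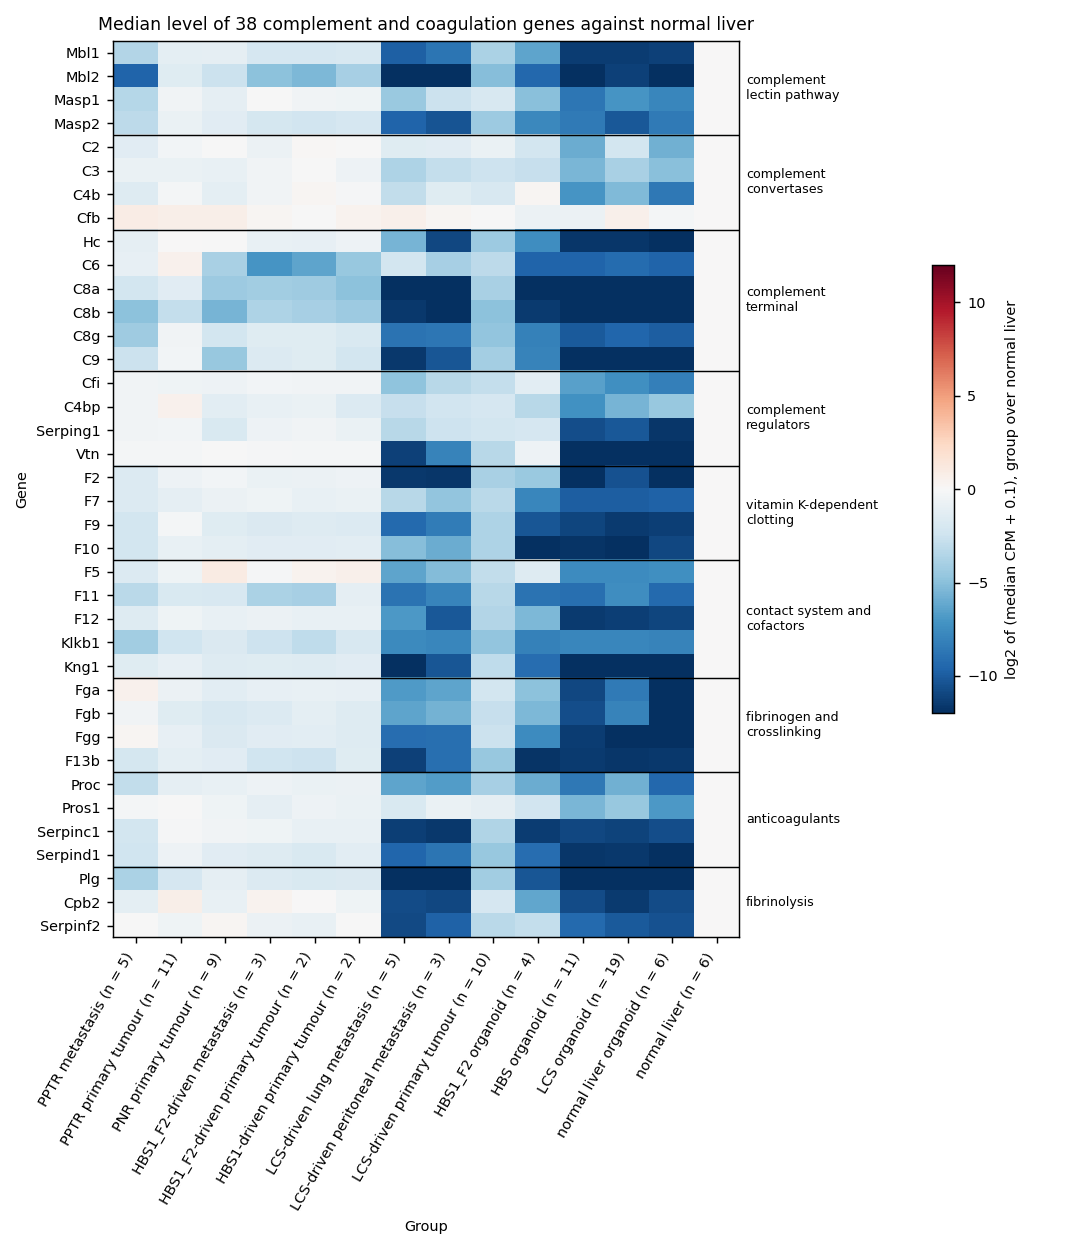
log2 of the median CPM (with 0.1 CPM added to each median) of each group over that of normal liver, for the 38 genes in rows ordered by role and the 13 other groups in columns. PPTR primary tumours lie nearest 0 with a median of 66.9% of the liver level over the 38 genes, against 32.8% in PPTR metastases and 44.6% in PNR tumours, C6, C8a and C8b are low in both PNR tumours and tumours of the HBS1 lineage, LCS-driven tumours and metastases are lower, and LCS, HBS and normal liver organoids are lowest in most rows.

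PPTR primary tumours had less plasminogen, prothrombin, fibrinogen and contact system message than normal liver, while the convertase genes did not pass the test. In edgeR's quasi-likelihood test with Benjamini-Hochberg adjustment over all genes, 21 of the 38 members fell and the other 17 did not pass at an adjusted p under 0.05. Over all 15305 genes tested, 13.8% were called lower and 17.3% higher. The median log2 fold change, tumour over liver, was -0.69 over the members and 0.03 over all genes. In bulk tissue, fewer cells of a type and less RNA per cell cannot be told apart, here and in all that follows.

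Plg was at 311 to 1524 CPM (median 729.7) in PPTR primary tumours, against 2228 to 4862 CPM (median 2950.3) in normal liver (log2 fold change -2.09 ± 0.28, adjusted p = 5.5e-05), where ± gives the standard error of the fit. Every PPTR tumour was below every liver. F2 was at 867 to 1719 CPM (median 1386) in PPTR primary tumours, against 1785 to 2618 CPM (median 2104) in normal liver (log2 fold change -0.77 ± 0.16, adjusted p = 0.0019), also with no overlap, and no other member was free of overlap. C8b, a chain of the pore protein C8, was at 25.5 to 279.9 CPM (median 66.1) in PPTR primary tumours, against 156 to 703 CPM (median 479) in normal liver (log2 fold change -2.21 ± 0.49, adjusted p = 0.0028). Klkb1 (plasma prekallikrein, of the contact system) was at 0.768 to 22.7 CPM (median 5.6) in PPTR primary tumours, against 18.8 to 44.4 CPM (median 29.8) in normal liver (log2 fold change -1.94 ± 0.52, adjusted p = 0.0089). In both genes the highest tumours reached into the range of the livers.

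By role, all 5 contact system and cofactor genes, all 4 fibrinogen and crosslinking genes and 3 of 4 vitamin K-dependent clotting genes fell. In the lectin pathway 3 of 4 genes fell, as did 2 of 6 terminal genes, 2 of 4 complement regulators, 1 of 4 anticoagulants and 1 of 3 fibrinolysis genes. Fgb was at 1979.9 to 6948 CPM (median 3839) in PPTR primary tumours, against 6797, 13049, 12079, 8719, 43075 and 7727 CPM in normal livers 1 to 6 (log2 fold change -1.94 ± 0.39, adjusted p = 0.0015). Liver 5 held several times the Fgb of the others, and without it the change was -1.25 ± 0.30 (adjusted p = 0.0067). Leaving it out ended the calls of 7 members, among them Fga and Fgg, and Cpb2, an inhibitor of fibrinolysis, was then called higher.

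C3, the central complement protein, was at 7518 to 31778 CPM (median 9652) in PPTR primary tumours, against 13741 to 28809 CPM (median 17020) in normal liver (log2 fold change -0.59 ± 0.34, adjusted p = 0.20). C4b was at 959 to 3820.2 CPM (median 2149) in PPTR primary tumours, against 1609 to 4121 CPM (median 2492) in normal liver (log2 fold change -0.31 ± 0.31, adjusted p = 0.46). Both had overlapping libraries, and neither difference was larger than the spread between them. With library totals in place of TMM factors, which moves the median over all genes to 0.50, 12 members fell and 3 (Cfb, C4bp, Cpb2) rose. With the ribosomal share as a covariate, 2 members (Plg, Serping1) were called lower. The Kupffer cell marker Clec4f was at 0.232 to 323 CPM (median 85.5) in PPTR primary tumours and 205 to 694 CPM (median 449.7) in normal liver, and its part was not tested.

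**Figure D3:**
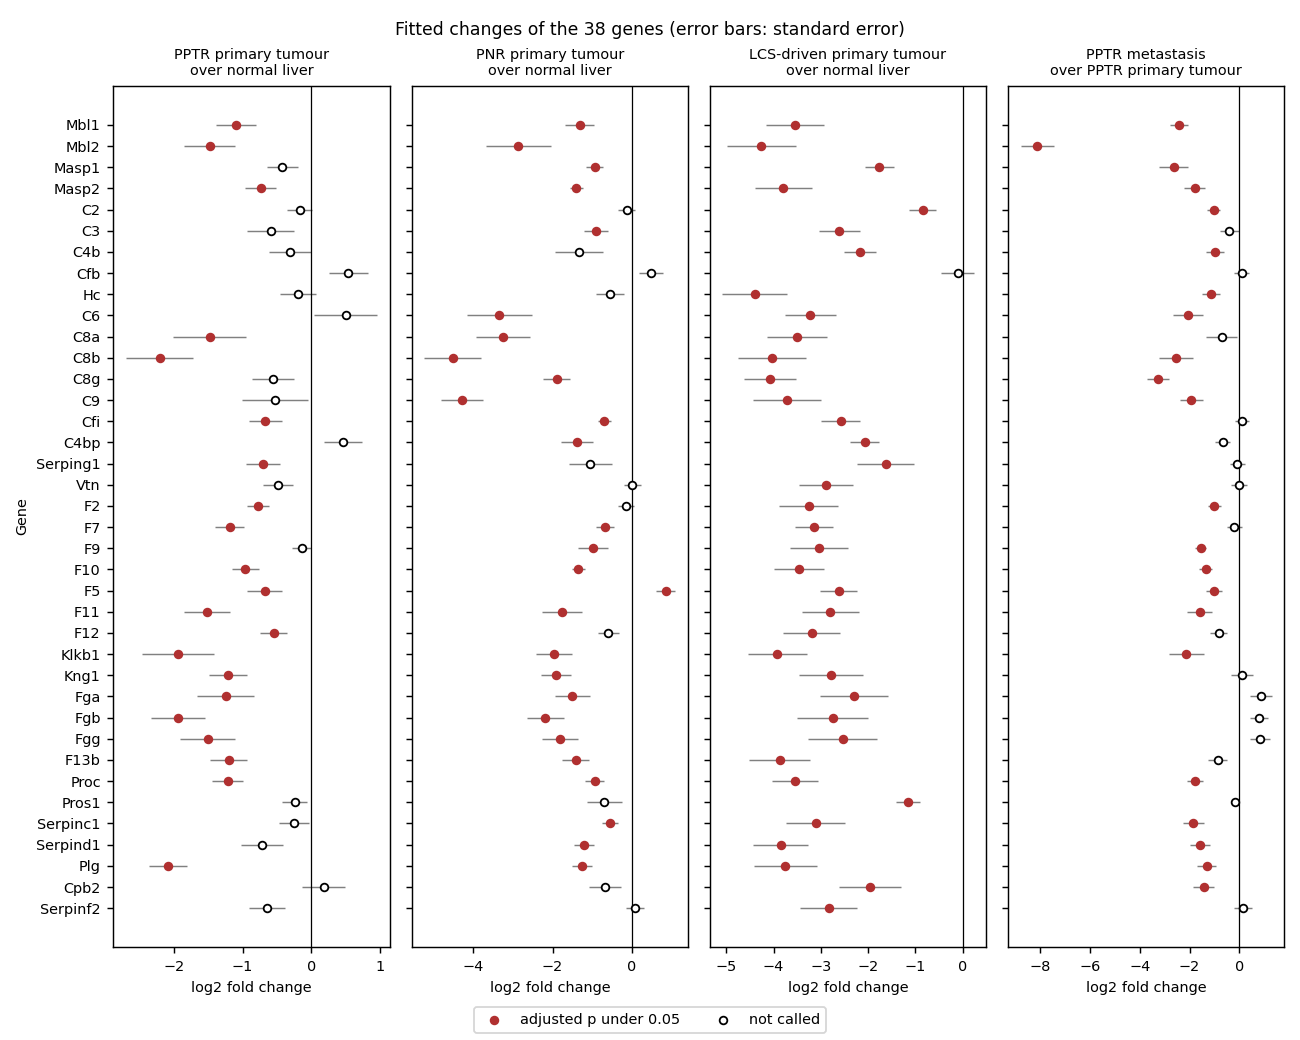
log2 fold changes of the 38 genes, with bars for the standard error of the edgeR fit, for PPTR, PNR and LCS-driven primary tumours over normal liver and PPTR metastases over PPTR primary tumours. Filled red points passed an adjusted p of 0.05: 21 fell in PPTR primary tumours, 26 fell and F5 rose in PNR tumours, 37 fell in LCS-driven tumours and 22 fell in PPTR metastases.

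PNR tumours had little of the genes of the membrane pore, and more F5, the coagulation factor V that serves as cofactor of F10. Of the 38 members 26 fell against normal liver and F5 rose, where 21.3% of all genes tested were called lower and 26.4% higher. The median log2 fold change was -1.23 over the members and 0.11 over all genes. Among the 6 terminal genes 5 fell, with a median of -3.29 for the 6, and 17 members in all had no overlap between tumours and livers. Overlap was counted for the members only, here and below, so no share of all genes stands beside such counts.

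C9, which forms most of the pore, was at 13.3 to 87 CPM (median 39.7) in PNR tumours, against 158 to 1640.3 CPM (median 929) in normal liver (log2 fold change -4.28 ± 0.53, adjusted p = 2.1e-05). C8b was at 1.41 to 49.4 CPM (median 10.1) in PNR tumours, against 156 to 703 CPM (median 479) in normal liver (log2 fold change -4.51 ± 0.72, adjusted p = 0.00016). C8a, its partner chain, was at 8.83 to 364 CPM (median 59.2) in PNR tumours, against 443 to 1979 CPM (median 1239) in normal liver (log2 fold change -3.24 ± 0.68, adjusted p = 0.0013). In these 3 genes every PNR tumour was below every liver. C6 was at 16.9, 4.2, 5.35, 25.7, 15.2, 11.8, 0.0613, 0.46 and 0.379 CPM in PNR tumours 1 to 9, against 48.2 to 155 CPM (median 79.4) in normal liver (log2 fold change -3.34 ± 0.81, adjusted p = 0.0037). Tumours 7, 8 and 9, which closely matched each other, had almost none. The lectin Mbl2 was at 1.35 to 195 CPM (median 137) in PNR tumours, against 374 to 946 CPM (median 838) in normal liver (log2 fold change -2.86 ± 0.82, adjusted p = 0.01), with no overlap.

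F5 was at 842 to 2086 CPM (median 1384) in PNR tumours, against 601 to 1243 CPM (median 702) in normal liver (log2 fold change 0.85 ± 0.24, adjusted p = 0.0098), and liver 3 reached the range of the tumours. F2 was at 1280.1 to 2808 CPM (median 1658) in PNR tumours, against 1785 to 2618 CPM (median 2104) in normal liver (log2 fold change -0.15 ± 0.21, adjusted p = 0.57). Vtn (vitronectin, which blocks insertion of the pore) was at 1324 to 3627 CPM (median 2589) in PNR tumours, against 2059.8 to 3085 CPM (median 2590.3) in normal liver (log2 fold change 0.01 ± 0.21, adjusted p = 0.97). The ranges of F2 and Vtn overlapped and their fitted changes were near 0. Fgb was at 1642 to 6233 CPM (median 2728) in PNR tumours, against 6797 to 43075 CPM (median 10399) in normal liver (log2 fold change -2.18 ± 0.47, adjusted p = 0.0017), with every tumour below every liver.

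Without liver 5, 22 members were lower and C3, F7, F9 and Fga lost their calls. With PNR libraries 2 and 3, 4 to 6, and 7 and 9 summed, 22 were lower. PNR library 8 stayed a replicate of its own in that setting, although it closely matched libraries 7 and 9. With library totals 5 members rose (Cfb, Vtn, F2, F5, Serpinf2) and 16 fell, at an all-gene median of 0.68. With the ribosomal share as a covariate no member passed edgeR's test, and the fitted change of Fgb became 0.39 ± 1.05. The ribosomal share does not overlap between PNR tumours and normal liver, so its part and that of the tissue cannot be told apart. PNR tumours and normal livers also share no leading code of the library identifiers, so the same holds for that code. Macrophage markers summed to 66.6 to 459 CPM in PNR tumours and 894 to 4131 CPM in normal liver, and their part was not tested.

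Set directly against each other, PPTR tumours had more of the terminal complement genes than PNR tumours, and less F5, plasminogen and prothrombin. Here 10 members were higher and 6 lower in PPTR tumours, where 24.2% of all genes tested were called higher and 26.5% lower. The median was 0.31 over the members and -0.03 over all genes. PPTR and PNR tumours share no leading code of the library identifiers, so that code and the tumour kind cannot be told apart. The 10 were C6, C8a, C8b, C8g and C9 of the terminal genes, Masp2, C4bp, F9, Kng1 and Cpb2.

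C6 was at 33.1 to 442 CPM (median 114) in PPTR primary tumours, against 0.0613 to 25.7 CPM (median 5.35) in PNR tumours (log2 fold change 3.84 ± 0.77, adjusted p = 0.0004). C9 was at 152 to 1675 CPM (median 746) in PPTR primary tumours, against 13.3 to 87 CPM (median 39.7) in PNR tumours (log2 fold change 3.75 ± 0.46, adjusted p = 2.2e-06). C6 and C9 did not overlap between the tumour kinds, and nor did F5, which was at 279 to 786 CPM (median 477) in PPTR primary tumours, against 842 to 2086 CPM (median 1384) in PNR tumours (log2 fold change -1.54 ± 0.23, adjusted p = 2.2e-05). C8b gave a log2 fold change of 2.30 ± 0.63 (adjusted p = 0.0048) and C4bp, a cofactor in the inactivation of C4, gave 1.85 ± 0.36 (adjusted p = 0.00028).

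Plg was at 311 to 1524 CPM (median 729.7) in PPTR primary tumours, against 735 to 1802 CPM (median 1420.5) in PNR tumours (log2 fold change -0.84 ± 0.24, adjusted p = 0.0068), with overlap. F2 changed by -0.63 ± 0.17 (adjusted p = 0.0038) and Serpinf2, the plasmin inhibitor, by -0.73 ± 0.23 (adjusted p = 0.013). F7 and Vtn were the other members lower in PPTR tumours. With the same PNR libraries summed and library 8 again left apart, 7 members were higher and 4 lower. Macrophage markers summed to 313 to 2069 CPM in PPTR tumours and 66.6 to 459 CPM in PNR tumours, and their part was not tested.

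LCS-driven primary tumours were lower in nearly the whole set. All members but Cfb fell against normal liver, 37 of 38, where 28.3% of all genes tested were called lower and 35.1% higher. The median log2 fold change was -3.08 over the members and 0.13 over all genes. Hc (C5) was at 1.51 to 183 CPM (median 47.9) in LCS-driven primary tumours, against 769 to 1903 CPM (median 978) in normal liver (log2 fold change -4.40 ± 0.68, adjusted p = 3.2e-05). Mbl2 was at 0.886 to 122 CPM (median 23.6) in LCS-driven primary tumours, against 374 to 946 CPM (median 838) in normal liver (log2 fold change -4.26 ± 0.73, adjusted p = 9.4e-05). C8g, the small chain of C8, was at 3.29 to 69.5 CPM (median 13.3) in LCS-driven primary tumours, against 153 to 598 CPM (median 354) in normal liver (log2 fold change -4.07 ± 0.55, adjusted p = 8.7e-06). Every LCS-driven tumour was below every liver in these genes, in C8b (log2 fold change -4.03 ± 0.72, adjusted p = 0.00013) and in 29 of the 38 members overall.

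The tumours differed widely among themselves. F2 was at 401, 82.9, 188, 618, 84.6, 523, 89.8, 5.38, 102 and 209 CPM in LCS-driven primary tumours 1 to 10, all below the lowest liver at 1785 CPM (log2 fold change -3.26 ± 0.62, adjusted p = 0.00023). Tumour 8 had the least F2 and also the least Alb, 215 CPM against up to 32868 CPM in the others, and the least Clec4f (0.513 CPM). Fgb was at 30.0 to 7271 CPM (median 1506) in LCS-driven primary tumours, against 6797 to 43075 CPM (median 10399) in normal liver (log2 fold change -2.75 ± 0.75, adjusted p = 0.0042), and the highest tumours reached the lower livers.

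Pros1, a cofactor of protein C, was at 60.5 to 171 CPM (median 89.8) in LCS-driven primary tumours, against 151 to 371 CPM (median 192) in normal liver (log2 fold change -1.16 ± 0.25, adjusted p = 0.00059). The least lowered of the other called members were C2 (-0.85 ± 0.28), Serping1, the inhibitor of C1 (-1.63 ± 0.60), and Masp1 (-1.76 ± 0.31). Cfb gave -0.11 ± 0.34 (adjusted p = 0.80). Without liver 5, 34 members fell and Serping1, Fga and Cpb2 lost their calls. With library totals, where the all-gene median was 1.17, 31 members fell and Cfb rose. With the ribosomal share as a covariate C8g alone passed edgeR's test, the members' median was -2.09 and the fitted change of Fgb became 0.28 ± 1.54.

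All 19 hepatocyte markers fell in the same comparison. Among 21 transcription factors of liver 13 fell and 2 rose. Ppara, a regulator of fatty acid use, gave -3.89 ± 0.63 (adjusted p = 5.1e-05), and the nuclear receptor Nr1i3 gave -3.75 ± 0.65 (adjusted p = 0.0001). Hnf4a, chosen here after its value was seen because it binds many liver genes, gave -1.66 ± 0.23 (adjusted p = 1e-05).

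Against PPTR primary tumours, LCS-driven primary tumours were lower in 34 members, where 28% of all genes tested were called lower and 28.6% higher. The medians were -2.12 over the members and 0.02 over all genes. Hc was at 1.51 to 183 CPM (median 47.9) in LCS-driven primary tumours, against 432 to 1905 CPM (median 1041) in PPTR primary tumours (log2 fold change -4.24 ± 0.58, adjusted p = 2.7e-06), with no overlap. C6 was at 0.303 to 24.6 CPM (median 8.95) in LCS-driven primary tumours, against 33.1 to 442 CPM (median 114) in PPTR primary tumours (log2 fold change -3.74 ± 0.56, adjusted p = 9.7e-06), also with no overlap. C8g gave -3.54 ± 0.48 (adjusted p = 2.6e-06) and C9 gave -3.23 ± 0.60 (adjusted p = 0.00011).

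The 4 members that did not pass in that comparison were the fibrinogen chains and Serping1. Fgb was at 30.0 to 7271 CPM (median 1506) in LCS-driven primary tumours, against 1979.9 to 6948 CPM (median 3839) in PPTR primary tumours (log2 fold change -0.85 ± 0.53, adjusted p = 0.18). Fga gave -1.09 ± 0.54, Fgg gave -1.07 ± 0.54 and Serping1 gave -0.96 ± 0.48. LCS-driven tumours spanned more than the whole PPTR range of Fgb, and the differences were not larger than that spread.

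In PPTR metastases the lectin Mbl2 was nearly absent, whereas the changes of fibrinogen, C3 and vitronectin did not pass the test. Against PPTR primary tumours 22 of 38 members fell, where 16.3% of all genes tested were called lower and 15.5% higher. The median log2 fold change was -1.03 over the members and -0.02 over all genes. Mbl2 was at 0.361, 0.936, 0.954, 1.51 and 1.07 CPM in PPTR metastases 1 to 5, against 73.7 to 500.3 CPM (median 299.6) in PPTR primary tumours (log2 fold change -8.12 ± 0.66, adjusted p = 2.4e-07). All 5 metastases, in intestine, lung, peritoneum and liver, were far below every primary tumour. Masp1, a protease that Mbl2 carries, was at 7.14, 12.1, 44.4, 1.26 and 10.5 CPM in PPTR metastases 1 to 5, against 47.8 to 159 CPM (median 84.5) in PPTR primary tumours (log2 fold change -2.63 ± 0.58, adjusted p = 0.0024). C8g was at 18.3, 13.9, 54.3, 14 and 34.9 CPM in PPTR metastases 1 to 5, against 56.6 to 393 CPM (median 266) in PPTR primary tumours (log2 fold change -3.27 ± 0.45, adjusted p = 4.5e-05). Intestinal metastasis 3 was the highest of the 5 in both genes and still below the primary tumours.

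All 4 lectin pathway genes, 5 of 6 terminal genes and 3 of 4 anticoagulants fell, and no fibrinogen gene or complement regulator passed edgeR's test in either direction. Serpinc1 was at 170.1, 172, 698, 419 and 947 CPM in PPTR metastases 1 to 5, against 777 to 2556 CPM (median 1680.3) in PPTR primary tumours (log2 fold change -1.85 ± 0.41, adjusted p = 0.0025), and metastasis 5, within the liver, reached the lowest primary tumours. C8b gave -2.55 ± 0.67 (adjusted p = 0.0079) and Mbl1 gave -2.42 ± 0.35 (adjusted p = 7.7e-05). Mbl1, F9 and F10 joined Mbl2, Masp1 and C8g as the 6 members without overlap. The calls of C4b, Hc, F5, F11 and Klkb1 were each lost on leaving out at least 1 metastasis, and those of the 6 members without overlap were not.

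Fgb was at 6447, 2047, 7778, 10409 and 9581 CPM in PPTR metastases 1 to 5, against 1979.9 to 6948 CPM (median 3839) in PPTR primary tumours (log2 fold change 0.79 ± 0.36, adjusted p = 0.10). Metastasis 2, from lung, was the lowest, metastasis 1 lay near the top of the primary range and metastases 3, 4 and 5 lay above it. Metastasis 2 held 965 CPM of Sftpc, against at most 0.201 CPM in the other 4, and the part of lung tissue in its levels was not tested. Without metastasis 2, Fga, Fgb and Fgg were called higher, as they were with library totals (all-gene median 0.41), and DESeq2 called Fgb higher. C3 was at 10832, 6437, 14581, 9811 and 9459 CPM in PPTR metastases 1 to 5, against 7518 to 31778 CPM (median 9652) in PPTR primary tumours (log2 fold change -0.41 ± 0.38, adjusted p = 0.44). Vtn was at 991, 866, 2698, 2143 and 2918 CPM in PPTR metastases 1 to 5, against 897 to 2673 CPM (median 2175) in PPTR primary tumours (log2 fold change -0.01 ± 0.31, adjusted p = 0.98). The ranges of C3 and Vtn overlapped.

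The Kupffer cell marker Clec4f was at 0 to 0.716 CPM in PPTR metastases and 0.232 to 323 CPM in PPTR primary tumours. It does not stand for all macrophage markers. In the metastases Timd4 was at 0.134 to 0.744 CPM, but Lyz2 was at 960 to 2704 CPM and Csf1r at 85.0 to 139 CPM. Hepatocyte markers summed to 7801 to 48586 CPM in the metastases and 48004 to 147500 CPM in primary tumours, and 7 of 19 fell. The part of the makeup of the tissue in these levels was not tested.

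LCS-driven lung metastases had almost none of many clotting and pore messages, among them F2, Plg and C8a. Against LCS-driven primary tumours 27 of 38 members fell, where 7.03% of all genes tested were called lower and 7.73% higher. The medians were -5.15 over the members and -0.02 over all genes. F2 was at 0.607, 0.746, 0, 0.725 and 0.228 CPM in lung metastases 1 to 5, against 5.38 to 618 CPM (median 145) in LCS-driven primary tumours (log2 fold change -8.96 ± 1.34, adjusted p = 0.00031). Serpinc1 was at 0.624, 0.459, 0.679, 0.708 and 0.251 CPM in lung metastases 1 to 5, against 4.36 to 745 CPM (median 156) in LCS-driven primary tumours (log2 fold change -8.75 ± 1.09, adjusted p = 8.2e-05). Plg was at 0.375, 0.0861, 0.0523, 0.276 and 0.0456 CPM in lung metastases 1 to 5, against 5.01 to 768 CPM (median 159) in LCS-driven primary tumours (log2 fold change -10.39 ± 1.36, adjusted p = 0.00012). Each metastasis was below each primary tumour in all 3 genes, including the primary tumour 8 that had little albumin.

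The other large changes were those of C8a (log2 fold change -10.85 ± 1.18, adjusted p = 2.2e-05), Kng1, the kininogen that releases bradykinin (log2 fold change -10.05 ± 1.47, adjusted p = 0.00027), and Cpb2 (log2 fold change -9.16 ± 1.23, adjusted p = 0.00014). All 5 contact system and cofactor genes, all 4 fibrinogen and crosslinking genes and all 4 lectin pathway genes fell. Fgb was at 192, 127, 0.209, 141 and 16.1 CPM in lung metastases 1 to 5, against 30.0 to 7271 CPM (median 1506) in LCS-driven primary tumours (log2 fold change -4.64 ± 1.31, adjusted p = 0.025). Metastases 1, 2 and 4 lay within the primary range, and leaving out metastasis 1, 2 or 5 ended the call of Fgb. F10 lost its call whichever metastasis was left out.

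None of the 4 convertase genes passed edgeR's test in lung metastases, and nor did Hc, C6, Cfi, C4bp, Serping1, F7 or Pros1. C3 was at 1767, 1328, 196, 2533 and 868 CPM in lung metastases 1 to 5, against 1228 to 7262 CPM (median 2993) in LCS-driven primary tumours (log2 fold change -1.31 ± 0.58, adjusted p = 0.14). C4b was at 432, 319, 27.2, 363 and 159.9 CPM in lung metastases 1 to 5, against 184 to 916 CPM (median 649.7) in LCS-driven primary tumours (log2 fold change -1.18 ± 0.52, adjusted p = 0.13). Lung metastasis 3 was the lowest of the 5 in C3 and C4b, and the others lay within or near the primary range.

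Pros1 was at 64.7, 54, 42.7, 106 and 55.7 CPM in lung metastases 1 to 5, against 60.5 to 171 CPM (median 89.8) in LCS-driven primary tumours (log2 fold change -0.64 ± 0.28, adjusted p = 0.12). F7, the protease that binds tissue factor, was at 14.1, 12.5, 10.4, 9.65 and 22.9 CPM in lung metastases 1 to 5, against 2.07 to 29.2 CPM (median 13.7) in LCS-driven primary tumours (log2 fold change -0.10 ± 0.45, adjusted p = 0.90). Both ranges overlapped with those of the primary tumours. With lung metastases 1 and 2 summed 25 members fell, and with the leading code of the library identifiers as a covariate 13 did. Hepatocyte markers fell in 15 of 19 and summed to 494 to 904 CPM in lung metastases and 720.5 to 52665 CPM in primary tumours. Lung epithelium markers summed to 1088 to 2269.6 CPM in lung metastases and 11.8 to 364 CPM in primary tumours. The part of lung tissue in the levels was not tested.

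**Figure D4:**
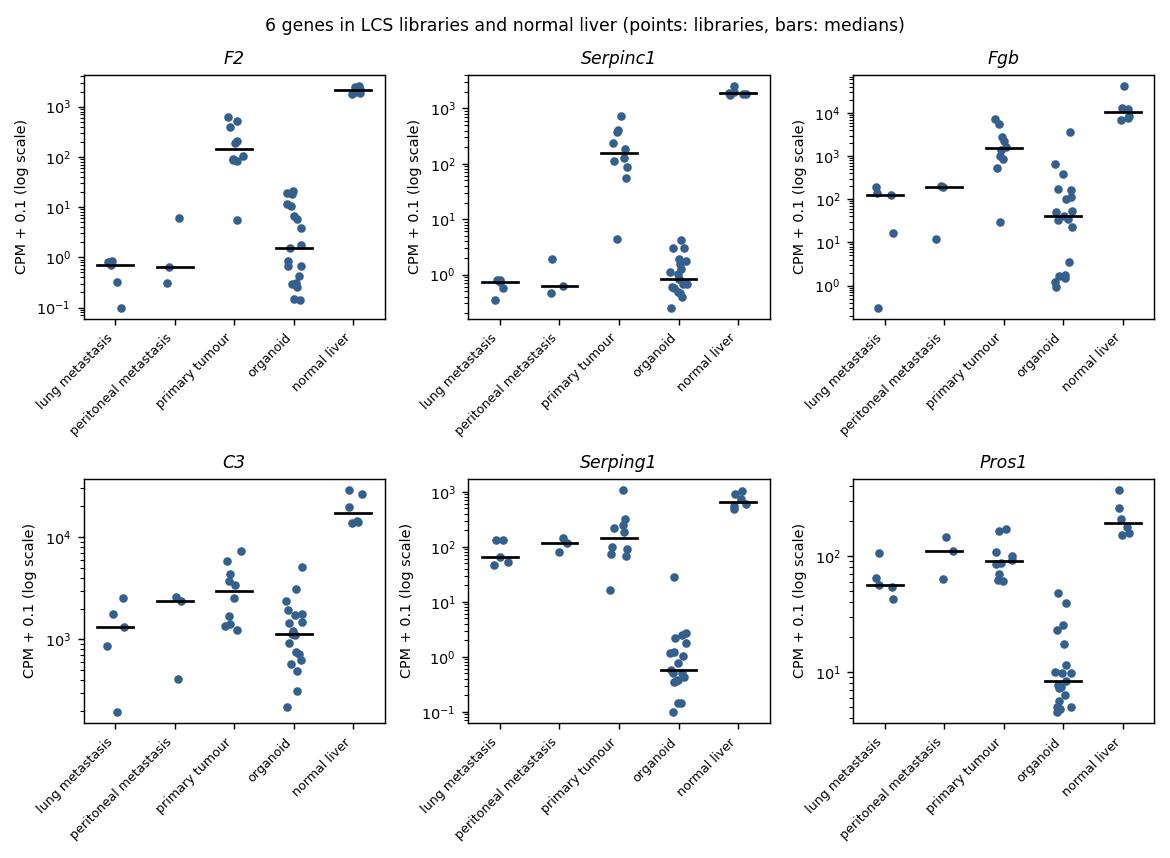
CPM plus 0.1, on a log axis, of F2, Serpinc1, Fgb, C3, Serping1 and Pros1 in each library of LCS-driven lung metastases, peritoneal metastases and primary tumours, LCS organoids and normal liver, with a bar at each group's median. F2 and Serpinc1 are below 10 CPM in all 8 metastases and above 4 CPM in all primary tumours, while Pros1 of the metastases lies between 42.7 and 145 CPM and overlaps the primary tumours.

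In LCS-driven peritoneal metastases 13 of 38 members fell against the same 10 primary tumours, where 0.759% of all genes tested were called lower and 0.125% higher. The medians were -4.93 over the members and -0.03 over all genes. F2 was at 6.03, 0.548 and 0.203 CPM in peritoneal metastases 1 to 3, against 5.38 to 618 CPM (median 145) in LCS-driven primary tumours (log2 fold change -7.21 ± 1.63, adjusted p = 0.044), and metastasis 1 was above the lowest primary tumour. Plg was at 1.84, 0.183 and 0.0312 CPM in peritoneal metastases 1 to 3, against 5.01 to 768 CPM (median 159) in LCS-driven primary tumours (log2 fold change -9.85 ± 1.82, adjusted p = 0.019). Cpb2 was at 0, 0.0913 and 0.0467 CPM in peritoneal metastases 1 to 3, against 1.4 to 289 CPM (median 71.2) in LCS-driven primary tumours (log2 fold change -10.51 ± 1.79, adjusted p = 0.019). Neither Plg nor Cpb2 overlapped. C8a gave -10.01 ± 1.54 (adjusted p = 0.019), and C8b had no count in the 3 libraries and was at least 976-fold lower than in primary tumours, with a floor of 3 counts over the group.

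C3 was at 2384, 2578 and 414 CPM in peritoneal metastases 1 to 3, against 1228 to 7262 CPM (median 2993) in LCS-driven primary tumours (log2 fold change -0.86 ± 0.70, adjusted p = 0.70). C4b was at 901, 1042 and 279.7 CPM in peritoneal metastases 1 to 3, against 184 to 916 CPM (median 649.7) in LCS-driven primary tumours (log2 fold change 0.36 ± 0.58, adjusted p = 0.89). Both overlapped with the primary tumours, and none of the 4 convertase genes, 4 regulators or 4 fibrinogen and crosslinking genes passed edgeR's test. Leaving out any 1 of the 3 metastases left no member called by edgeR, and DESeq2 on all 3 called 27 lower. The shares of all genes above are those of edgeR and do not apply to the count by DESeq2. Hepatocyte markers summed to 382 to 734 CPM in peritoneal metastases and 720.5 to 52665 CPM in primary tumours, and 3 of 19 fell. Neutrophil markers summed to 469.9 to 2855 CPM in peritoneal metastases and 70.8 to 557 CPM in primary tumours, and fibroblast and stellate cell markers to 2074 to 30231 CPM in peritoneal metastases and 2711 to 84583 CPM in primary tumours. Their part in the levels was not tested.

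Normal liver organoids had nearly none of these messages. Against normal liver 37 of 38 members fell, where 36% of all genes tested were called lower and 38.1% higher. The medians were -11.62 over the members and 0.07 over all genes. F2 was at 0.189 to 1.43 CPM (median 0.41) in normal liver organoids, against 1785 to 2618 CPM (median 2104) in normal liver (log2 fold change -11.90 ± 0.66, adjusted p = 2e-09). Fgb was at 0 to 2.72 CPM (median 0.652) in normal liver organoids, against 6797 to 43075 CPM (median 10399) in normal liver (log2 fold change -13.75 ± 1.59, adjusted p = 2.7e-06). Plg was at 0 to 0.672 CPM (median 0.143) in normal liver organoids, against 2228 to 4862 CPM (median 2950.3) in normal liver (log2 fold change -13.63 ± 0.97, adjusted p = 2.1e-08). All 37 members were free of overlap, and 37 were called lower with organoids 1 to 3 alone and with organoids 4 to 6 alone. Mbl1 and F9 had 3 counts each over the 6 organoid libraries. That gives a level 8468-fold lower (2897 to 41060) for Mbl1 and 8483-fold lower (2902 to 41140) for F9 than in normal liver, with intervals at 95% that cover counting error only.

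The smallest called changes in normal liver organoids were those of complement genes and protein S. C4bp was at 2.69 to 113 CPM (median 40.8) in normal liver organoids, against 554 to 1325 CPM (median 984) in normal liver (log2 fold change -4.22 ± 0.82, adjusted p = 0.00034). C3 was at 305 to 1052 CPM (median 514) in normal liver organoids, against 13741 to 28809 CPM (median 17020) in normal liver (log2 fold change -5.13 ± 0.50, adjusted p = 4.7e-07). Pros1 was at 1.08 to 15.8 CPM (median 1.53) in normal liver organoids, against 151 to 371 CPM (median 192) in normal liver (log2 fold change -5.81 ± 0.72, adjusted p = 5.2e-06). Every organoid was below every liver in these genes too. Cfb gave -0.69 ± 0.43 (adjusted p = 0.16).

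Organoids of LCS lines had more Fga, Fgb, C4b, C2 and protein C than the 6 normal liver organoids together, and these calls were lost against either set of 3. Against normal liver organoids 1 to 3 alone, Pros1 was called higher and Masp2 lower, and against 4 to 6 alone no member passed edgeR's test. The change of Fgb was 6.83 ± 2.10 (adjusted p = 0.11) against organoids 1 to 3 and 13.29 ± 3.03 (adjusted p = 0.096) against organoids 4 to 6. With the libraries of a line summed (5 lines against 6 normal liver organoid libraries), 18 members were too low to test, and 5 of the 20 tested rose, where 3.24% of all genes tested were called higher and 1.86% lower. Those 20 passed a filter on low counts, which a member can pass through the group with the higher level alone, and do not speak for all 38. Fgb was at 0.824 to 3722 CPM (median 39.993) in LCS organoids, against 0 to 2.72 CPM (median 0.652) in normal liver organoids (log2 fold change 7.79 ± 1.74, adjusted p = 0.027), with overlap. Its mean was 257 CPM in line LCS1, 43.3 CPM in LCS2, 1079 CPM in LCS3, 8.86 CPM in LCS4 and 1.36 CPM in LCS5. The 4 libraries of LCS3 themselves spanned 101 to 3722 CPM, so fibrinogen varied within a line as well as between lines. Fga rose by 6.87 ± 1.57 on the log2 scale (adjusted p = 0.029). The calls of Fga and Fgb ended when line LCS1 or LCS3 was left out.

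C4b was at 10.6 to 1281 CPM (median 63.4) in LCS organoids, against 2.75 to 12.2 CPM (median 6.29) in normal liver organoids (log2 fold change 4.49 ± 0.74, adjusted p = 0.0063). C2 was at 0.568 to 42.8 CPM (median 5.74) in LCS organoids, against 0.269 to 0.618 CPM (median 0.408) in normal liver organoids (log2 fold change 4.08 ± 0.75, adjusted p = 0.012). Proc was at 0.22 to 121 CPM (median 11.3) in LCS organoids, against 0.618 to 1.46 CPM (median 0.847) in normal liver organoids (log2 fold change 4.17 ± 0.73, adjusted p = 0.0091). All 3 overlapped between single libraries, and they kept their calls whichever line was left out. Line LCS1 had the highest mean in each, with 452 CPM of C4b against 37.6 CPM in LCS2, the lowest. Among the other complement genes C1s (5.57 ± 1.24) and C1rb (3.97 ± 0.91), which encode proteases of C1 in the classical pathway, rose too. Cd59a (4.05 ± 0.59), a membrane inhibitor of the pore, rose as well. C3 (1.27 ± 0.40, adjusted p = 0.089), F2 (3.24 ± 1.06, adjusted p = 0.099) and Fgg (4.90 ± 1.89, adjusted p = 0.15) did not pass. DESeq2 called 8 members higher, adding C3, Cfb and F2, and its share of all genes is not given here.

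HBS organoids had no member called against the 6 normal liver organoids, and 18 of the 38 were too low to test. In edgeR none of the 20 tested members passed, where 0.00667% of all genes tested were called higher and 0.04% lower and 1678 genes had an unadjusted p under 0.05. DESeq2 called Cfi (factor I, which inactivates C3b) higher. The fitted changes of the 20 ran from -0.96 to 2.64, with a median of 0.59. Among the untested members F9 had 52 counts in HBS organoids and 3 in normal liver organoids, a level 7.37-fold higher (2.39 to 36.9) in HBS organoids. Mbl1 had 19 and 3 counts, a level 2.69-fold higher (0.793 to 14.2). Both intervals are for counting error only, and that of Mbl1 includes equal levels. Against normal liver organoids 4 to 6 alone, Fga (4.77 ± 0.84, adjusted p = 0.046), Fgb (8.13 ± 1.23, adjusted p = 0.024) and Fgg (6.94 ± 1.09, adjusted p = 0.029) were called higher, and against 1 to 3 alone no member was called.

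Against HBS organoids, LCS organoids had more of 5 of the 32 members tested, where 2.76% of all genes tested were called higher and 0.898% lower. Those 32 passed a filter on low counts, which a member can pass through the group with the higher level alone. These were Fga (log2 fold change 5.20 ± 1.30, adjusted p = 0.048), C2 (log2 fold change 4.48 ± 0.77, adjusted p = 0.015), Masp1 (log2 fold change 3.81 ± 0.93, adjusted p = 0.045), C4b (log2 fold change 3.17 ± 0.74, adjusted p = 0.042) and Proc (log2 fold change 3.02 ± 0.74, adjusted p = 0.046). Fgb was at 0.824 to 3722 CPM (median 39.993) in LCS organoids, against 0.0997 to 30.0 CPM (median 6.5) in HBS organoids (log2 fold change 5.17 ± 1.34, adjusted p = 0.054), with overlap. Leaving out LCS1, LCS2 or LCS3 left C2 alone, leaving out LCS4 or LCS5 gave 8 members, and leaving out the LCS3 library with most fibrinogen gave 3 (Masp1, C2, C4b). With library totals C2 and C4b alone passed.

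LCS-driven primary tumours had far more of these messages than LCS organoids. In the tumours 32 members were higher and Cfb lower, where 30.7% of all genes tested were called higher and 29.9% lower. The medians were 6.19 over the members and 0.05 over all genes. Serpinc1 was at 4.36 to 745 CPM (median 156) in LCS-driven primary tumours, against 0.152 to 4.06 CPM (median 0.745) in LCS organoids (log2 fold change 7.46 ± 1.12, adjusted p = 4.6e-05), with no overlap. F2 was at 5.38 to 618 CPM (median 145) in LCS-driven primary tumours, against 0.0401 to 20.8 CPM (median 1.43) in LCS organoids (log2 fold change 5.31 ± 1.29, adjusted p = 0.0024), and some organoid libraries reached the lowest tumour. Cpb2 gave 10.24 ± 1.40 (adjusted p = 2e-05), C8b 9.90 ± 1.30, C8a 9.64 ± 1.29 and Kng1 9.26 ± 1.52. In all, 17 members had no overlap.

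The 5 members that did not pass were C2, C3, Hc, Fgb and Proc. C3 was at 1228 to 7262 CPM (median 2993) in LCS-driven primary tumours, against 219 to 5091 CPM (median 1140) in LCS organoids (log2 fold change 1.14 ± 0.50, adjusted p = 0.058). Fgb was at 30.0 to 7271 CPM (median 1506) in LCS-driven primary tumours, against 0.824 to 3722 CPM (median 39.993) in LCS organoids (log2 fold change 3.10 ± 1.32, adjusted p = 0.054). Hc had a line mean above 1 CPM in LCS3 alone, whose libraries spanned 3.12 to 67.7 CPM. The call of Cfb ended without LCS1 or LCS2, and those of Fga and C4b without other lines. Alb was at 215 to 32868 CPM (median 5624) in LCS-driven primary tumours and 0.412 to 725 CPM (median 12.6) in LCS organoids, and 18 of the 19 hepatocyte markers were higher in the tumours. Clec4f, of Kupffer cells, was at 0.513 to 92.6 CPM (median 22.9) in the tumours and 0 to 0.321 CPM (median 0) in the organoids. The part of other cells of the tumour samples was not tested.

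Among HBS1_F2 organoids, 3 of 4 libraries held a group of these messages at levels above every HBS organoid. Vtn was at 2426, 0.0165, 1809 and 1512 CPM in HBS1_F2 organoids 1 to 4 and at 0 to 4.24 CPM (median 0.491) in HBS organoids. F2 was at 262, 0.0661, 99.8 and 92.3 CPM in HBS1_F2 organoids and 0 to 2.56 CPM (median 0.417) in HBS organoids. Cfi was at 416, 0.909, 443 and 434 CPM in HBS1_F2 organoids and 4.49 to 58.3 CPM (median 10.9) in HBS organoids. Organoid 2 was the lowest of the 4 in each and lay among the HBS organoids or below them. F5 (321, 0.182, 251 and 222 CPM) and C4b (4277, 109.5, 1877 and 3842 CPM) were also lowest in organoid 2.

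In HBS1_F2 organoids 1 to 4 Alb was at 868, 1.19, 523 and 206 CPM, the macrophage gene Lyz2 at 177, 0.0165, 337 and 491 CPM and the fibroblast gene Col3a1 at 18.3, 0.859, 4.03 and 1541 CPM. The parts of these cells in the levels were not tested. Serpinc1 was at 5.94, 0.71, 0.52 and 0.29 CPM and Plg at 29.1, 0, 4.41 and 0.326 CPM, both far below the lowest normal liver (1762 and 2228 CPM).

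HBS1_F2-driven tumours, 2 primary tumours and 3 metastases, had more of most members than HBS1_F2 organoids, in a comparison chosen after values were seen. Of 37 members tested 27 were higher, where 18.5% of all genes tested were called higher and 21.6% lower. The 4 organoid libraries carry the same line name and were not summed. Their spread is thus that between libraries of a single line. Tumours and organoids here share no leading code of the library identifiers, so that code and the kind of sample cannot be told apart. The medians were 4.69 over the members and -0.08 over all genes. Serpinc1 was at 928 and 1132 CPM in HBS1_F2-driven primary tumours and 1529, 1299 and 314 CPM in metastases, all above the 4 organoids (log2 fold change 8.97 ± 1.24, adjusted p = 0.0014). C8a gave 9.23 ± 1.59 (adjusted p = 0.0029), F13b, the carrier of the fibrin crosslinking enzyme, 8.77 ± 1.27 (adjusted p = 0.0017), and C8b 7.93 ± 1.16 (adjusted p = 0.0017). Alb was at 4978 and 5736 CPM in HBS1_F2-driven primary tumours and 4077, 4172 and 1290.4 CPM in metastases, against 868, 1.19, 523 and 206 CPM in HBS1_F2 organoids, and 14 of 19 hepatocyte markers were higher in the tumours. Their part was not tested.

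The 10 members that did not pass included Vtn (log2 fold change 0.52 ± 1.43, adjusted p = 0.79), F2 (log2 fold change 3.30 ± 1.34, adjusted p = 0.075), C4b (log2 fold change -0.18 ± 0.76, adjusted p = 0.86) and F5 (log2 fold change 1.86 ± 1.19, adjusted p = 0.23). C6 was too low to fit, with 85 counts in the tumours and 3 in the organoids. Pooled over libraries, its level was 31.7-fold higher (10.5 to 157) in the tumours, with an interval for counting error only. HBS1_F2-driven primary tumour 2 held 0.04345 CPM of C6 and HBS1_F2 organoid 1 held 0.0598 CPM, so the libraries overlapped. Without organoid 2 the number higher was 32, and with each other library left out in turn it was 20 to 27. The calls of Fga, Fgb and Fgg were among those lost.

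**Figure D5:**
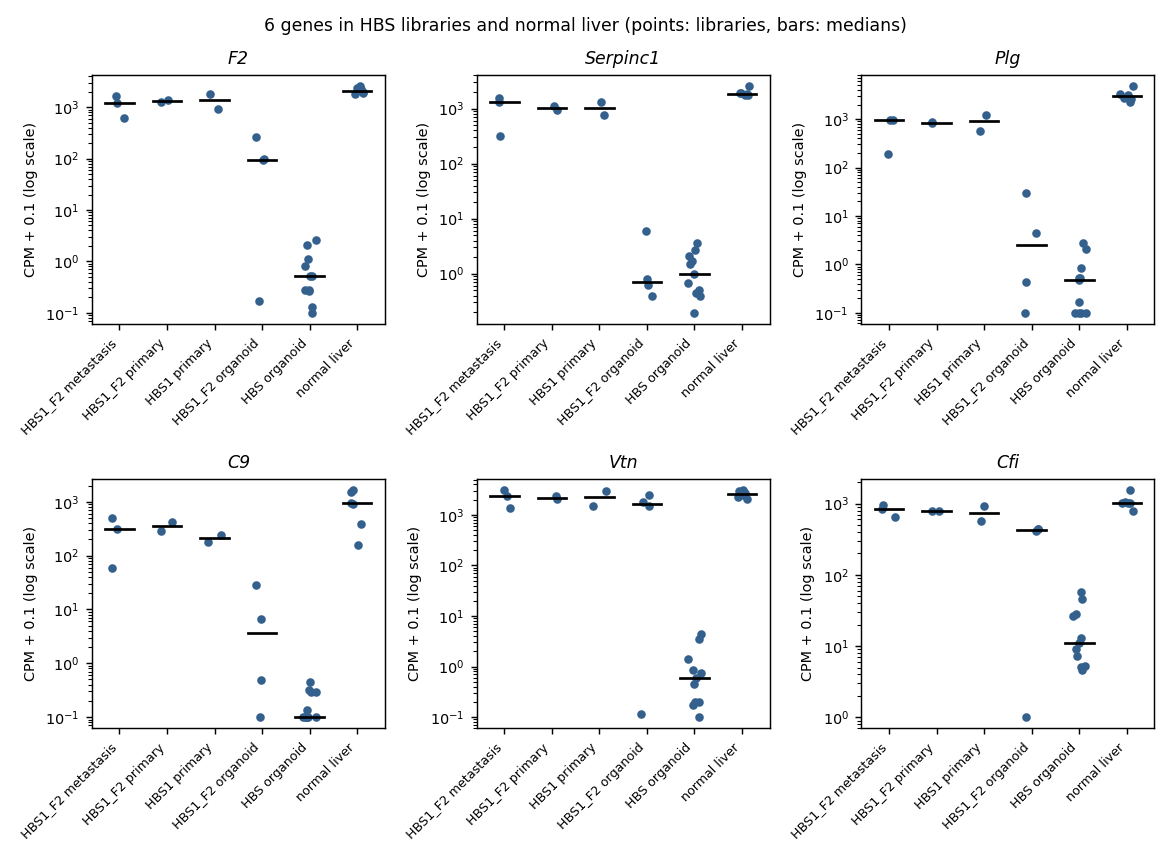
CPM plus 0.1, on a log axis, of F2, Serpinc1, Plg, C9, Vtn and Cfi in each library of HBS1_F2-driven metastases, HBS1_F2-driven and HBS1-driven primary tumours, HBS1_F2 and HBS organoids and normal liver, with a bar at each group's median. 3 of 4 HBS1_F2 organoids lie near the tumours in Vtn (1512 to 2426 CPM), and all 4 have Serpinc1 below 6 CPM.

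HBS1_F2-driven metastases were set against the HBS1-lineage primary tumours, that is, the HBS1-driven and HBS1_F2-driven ones together. In edgeR none of the 38 members passed, where 0% of all genes tested were called in either direction and 1271 genes had an unadjusted p under 0.05. DESeq2 called no member, and 120 genes higher and 45 lower over all genes. F2 was at 1632, 1219.6 and 624.6 CPM in HBS1_F2-driven metastases 1 to 3, 1267 and 1375 CPM in HBS1_F2-driven and 944 and 1803 CPM in HBS1-driven primary tumours (log2 fold change -0.20 ± 0.34, adjusted p = 0.89). Metastasis 3 was the lowest of the 7 tumours in F2, as in Plg (977, 962 and 191 CPM in metastases 1 to 3) and Pros1 (91.8, 129.9 and 7.85 CPM). Metastasis 3 was also the lowest of the 3 in Alb (4077, 4172 and 1290.4 CPM), Apoa2 (2172, 1577 and 145 CPM) and Hnf4a (283, 267 and 91.4 CPM), and the part of hepatocyte content was not tested.

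The largest fitted change was that of F11, factor XI of the contact pathway. It was at 6.51, 9.97 and 1.78 CPM in the metastases, 6.19 and 5.02 CPM in HBS1_F2-driven and 27.8 and 56.6 CPM in HBS1-driven primary tumours (log2 fold change -1.94 ± 0.95, adjusted p = 0.64). With 3 and 4 libraries the errors are wide, and the test does not show equal levels. C6 was at 0.48, 1.97 and 0.245 CPM in the metastases, 1.78 and 0.0435 CPM in HBS1_F2-driven and 3.66 and 3.15 CPM in HBS1-driven primary tumours, against 48.2 to 155 CPM (median 79.4) in normal liver. All 7 tumours were below every liver, a difference for which no model was fitted. PNR tumours had low C6 too, whereas C6 in PPTR primary tumours spanned 33.1 to 442 CPM (median 114).

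Other genes of complement and of coagulation were counted in lists of 32 and 34. Of 30 other complement genes tested against normal liver, 1 rose and 7 fell in PPTR primary tumours, 3 rose and 20 fell in PNR tumours, and 3 rose and 16 fell in LCS-driven primary tumours. Over all genes 17.3% were higher and 13.8% lower in PPTR primary tumours, 26.4% and 21.3% in PNR tumours, and 35.1% and 28.3% in LCS-driven primary tumours. In PPTR metastases against primary tumours 7 of 30 rose and 10 fell, where 15.5% of all genes were called higher and 16.3% lower. There Colec10 (log2 fold change -7.10 ± 1.05, adjusted p = 8.7e-05) and Colec11 (log2 fold change -5.53 ± 0.59, adjusted p = 3.5e-06), lectins that bind Masp proteases as Mbl2 does, were among those that fell.

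Of other coagulation and fibrinolysis genes, 10 of 30 rose and 5 fell in PPTR primary tumours against normal liver, 4 of 28 rose and 10 fell in PNR tumours, and 17 of 33 rose and 11 fell in LCS-driven primary tumours, to be read against the same shares of all genes. Plat, the tissue plasminogen activator, gave 5.22 ± 0.72 in PPTR (adjusted p = 7.8e-05), 7.63 ± 1.16 in PNR (adjusted p = 0.00011) and 7.29 ± 0.63 in LCS-driven tumours (adjusted p = 1e-07). Its substrate Plg fell in all 3, with -2.09 ± 0.28, -1.26 ± 0.24 and -3.75 ± 0.67. These comparisons share the 6 livers.

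In LCS-driven lung metastases 1 of 33 of these genes rose and 11 fell, where 7.73% of all genes were called higher and 7.03% lower, with the largest change in Hrg (log2 fold change -10.04 ± 1.33, adjusted p = 0.00013), a plasma protein that binds heparin and fibrinogen. In the vitamin K cycle, Vkorc1, the reductase needed to modify F2, F7, F9 and F10, gave -1.64 ± 0.26 in PPTR, -2.18 ± 0.20 in PNR and -3.08 ± 0.29 in LCS-driven primary tumours against normal liver, and it was called lower in each.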

How the data were processed

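The data are 96 RNA-seq libraries of mouse tumours, metastases, organoids and normal liver. Per the labels' protocols, RNA was isolated with an RNeasy Micro kit and libraries followed a total stranded RNA protocol. The deposited values are raw counts per gene symbol made by the authors. BWA, STAR, HTSeq and the build mm9 are named in the submitters' processing notes, with versions, settings and annotation not given in the sources used here.

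Each file held 34591 symbols and 5 closing entries, which were left out of library sizes. Depth was 4393199 to 87058563 gene counts per library, and counts of a few reads are imprecise. Genes were kept by filterByExpr of edgeR 4.0.16 in R 4.3.3 (minimum count 10, minimum total 15, large group 10, proportion 0.7), scaled by TMM, tested by the quasi-likelihood F test and adjusted by Benjamini and Hochberg over all genes tested, with a call at an adjusted p under 0.05. A gene can pass this filter through the group with the higher level alone. In comparisons with LCS or HBS organoids the libraries of a line were summed, and those of HBS1_F2 organoids were not. LCS-driven primary tumours and their metastases were fitted together. Levels are CPM with TMM factors computed once over all 96 libraries. The fit was tested on counts simulated with the same spread for every gene, with changes in well-counted genes only. That test does not cover members of few counts or of wide spread between libraries.

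The 38 genes and the other lists were chosen with earlier results of these data known. Every member may be named. Full statistics were given for up to 4 called members each way with the largest change and a mean of 5 CPM or more in whichever group was higher, and for uncalled members of high level. Up to 3 called genes were named from other lists, and values of further members were added after they were seen. Alternatives were DESeq2 1.42.0, library totals without TMM factors, no filter on low counts, the ribosomal share or identifier code as a covariate, closely matching libraries summed, and libraries or lines left out, some of them chosen after seeing the data. Promoter windows are from RefSeq on GRCm38.p6, and 29 of the 38 members had one. The comparison of HBS1_F2-driven tumours with HBS1_F2 organoids (1 in all) was added after values were seen.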

Additional observations from a re-analysis of the deposited data

Results flagged for a closer look

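In groups of 4 to 10 libraries, the highest or lowest library was compared with its nearest neighbour relative to the whole range of the group. Members of low median level in a group were left out. Of 189 groups of values tested this way 19 had a library that stood apart. The threshold is that of about 1 in 20 for independent, normally distributed values. These values share libraries and are not known to be normal, so that rate cannot be set against the 19.

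Normal liver 5 was the highest of the 6 livers in 19 of the 38 genes and stood apart in 7 of them. It held 43075 CPM of Fgb, with 13049 CPM in the next liver, 24125 CPM of Fga (next 9027 CPM), 22164 CPM of Fgg (next 6552 CPM), 1545 CPM of Cfi (next 1057 CPM), 9475.9 CPM of Kng1 (next 4171 CPM), 873 CPM of Cpb2 (next 311 CPM) and 1366 CPM of Serpinf2 (next 916 CPM). Normal liver 3 was the highest in Masp1, with 160.6 CPM (next 118 CPM), and in F5, with 1243 CPM (next 749.8 CPM), and normal liver 6 in Serpinc1, with 2589 CPM (next 1957 CPM).

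PPTR metastasis 3, from intestine, was the highest of the 5 in Masp1, with 44.4 CPM (next 12.1 CPM), in C2, with 24.4 CPM (next 11.2 CPM), and in C4b, with 2005 CPM (next 1090.1 CPM). LCS-driven primary tumour 1 was the highest of 10 in Hc, with 183 CPM (next 94.0 CPM), tumour 10 in Serping1, with 1081 CPM (next 316 CPM), and tumour 6 in Serpind1, with 239.5 CPM (next 118.6 CPM). HBS1_F2 organoid 1 was the highest of 4 in Kng1, with 46.6 CPM (next 7.42 CPM), and organoid 2 the lowest in Cfi, with 0.909 CPM (next 416 CPM). Normal liver organoid 1 held 0.117% of its counts in the 38 genes (next 0.0758%).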

How the results depend on the processing

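No paired analysis was possible because the labels give no replicate numbers that join libraries across groups. Over the counts of members called in each direction, 195 alternative values were within 1.5 times the reported count and 39 were not. An alternative that left a reported count of 0 at 0 was tallied among the 195. Of alternative fits of single named members 579 kept their side of the threshold, 55 lost the call and 19 gained one, and none reversed a called direction. With library totals in place of TMM factors, 3 members were higher and 12 lower in PPTR primary tumours against normal liver, 5 higher and 16 lower in PNR tumours, 1 higher in LCS-driven primary tumours, 2 higher in LCS against HBS organoids, 0 lower in LCS-driven primary tumours against LCS organoids and 3 higher in PPTR metastases against primary tumours. The median over all genes moved with it by up to 1.17, in LCS-driven primary tumours. With the ribosomal share as a covariate, 2 members were lower in PPTR primary tumours against normal liver, 0 were higher and 0 lower in PNR tumours, and 1 was lower in LCS-driven primary tumours. The ribosomal shares of PNR and LCS-driven primary tumours do not overlap those of normal liver, so share and tissue cannot be told apart there. DESeq2 called 8 members higher in LCS and 1 in HBS organoids against normal liver organoids, 9 higher and 1 lower in LCS against HBS organoids, 27 lower in LCS-driven peritoneal metastases and 1 higher in PPTR metastases. With the identifier code as a covariate 13 members were lower in LCS-driven lung and 0 in peritoneal metastases. The counts in this paragraph are given without the shares of all genes called in the same fits.

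Added settings chosen after seeing the data split normal liver organoids by identifier code. Against organoids 1 to 3 alone, 1 member was higher and 1 lower in LCS organoids, and against 4 to 6 alone 0 were higher in LCS organoids and 3 in HBS organoids. Each setting leaves 3 libraries in that group. Leaving out normal liver 5 gave 1 member higher in PPTR primary tumours against normal liver. Leaving out 1 line at a time gave 3 to 7 members higher in LCS against normal liver organoids, 1 to 8 higher in LCS against HBS organoids, and 0 to 1 lower in LCS-driven primary tumours against LCS organoids. Leaving out 1 library of line LCS3 gave 3 higher in LCS against HBS organoids. Leaving out 1 peritoneal metastasis gave 0 lower in each case (0 to 0), and leaving out 1 PPTR metastasis gave 0 to 3 higher. The count in HBS1_F2-driven metastases was 0 under every alternative run, and the members' median moved to 0.16 without metastasis 3. The cause of these shifts was not tested. Depth limits members at a few counts, such as C8b in peritoneal metastases, and the counting intervals leave out variation between cultures.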

Other observations

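Masp1, the lectin pathway protease, was at 5.13, 1.75, 0.685 and 179 CPM in HBS1_F2 organoids 1 to 4, against 0.0298 to 0.728 CPM (median 0.183) in HBS organoids. Organoid 4 lay above the normal livers (102 to 161 CPM, median 113), and the other 3 organoids lay below them. Organoid 4 was also the library with 1541 CPM of the fibroblast gene Col3a1. The part of fibroblasts was not tested.

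C4bp, the C4-binding protein, was at 195, 142, 15.1, 276 and 130 CPM in LCS-driven lung metastases 1 to 5 and 196, 265 and 36.9 CPM in peritoneal metastases 1 to 3, against 86.7 to 447 CPM (median 241) in LCS-driven primary tumours. LCS organoids held 3.78 to 272 CPM (median 20.5), against 2.69 to 113 CPM (median 40.8) in normal liver organoids. C4bp did not pass edgeR's test in either metastasis comparison (log2 fold change -0.60 ± 0.52, adjusted p = 0.46 in lung and log2 fold change -0.44 ± 0.63, adjusted p = 0.87 in peritoneum), nor in LCS against normal liver organoids (log2 fold change -0.42 ± 0.90, adjusted p = 0.82). Against normal liver organoids 1 to 3 alone it was -1.18 ± 0.70, and against 4 to 6 alone 1.40 ± 1.05.

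Serping1, the inhibitor of C1, was at 131, 132, 51.9, 45.7 and 66.3 CPM in LCS-driven lung metastases 1 to 5 and 144, 81.6 and 119 CPM in peritoneal metastases 1 to 3, against 16.6 to 1081 CPM (median 142) in LCS-driven primary tumours and 0 to 27.6 CPM (median 0.469) in LCS organoids. Between LCS-driven primary tumours and LCS organoids the log2 fold change was 6.81 ± 1.29, with an adjusted p of 0.00034. Fibroblast and stellate cell markers summed to 909 to 6162 CPM in lung metastases, 2711 to 84583 CPM in primary tumours and 0.908 to 13.1 CPM in LCS organoids, and their part was not tested.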
